A study of Homo sapiens with 2 samples.

Results

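Proteasome subunit genes were compared between A549 cells labelled as a model of epithelial to mesenchymal transition (EMT) after TGF-beta and A549 cells labelled as untreated. The genes were those whose deposited symbol is PSMA, PSMB, PSMC or PSMD followed by a number, which gave 41 gene entries with 39 symbols out of 57736 gene entries. They comprise 8 symbols of 20S alpha subunits, 8 of 20S beta subunits, the 3 inducible subunits PSMB8, PSMB9 and PSMB10, 6 of 19S ATPases and 14 of other 19S proteins. A549 is a human lung adenocarcinoma line of epithelial origin. In both groups the cells carried a red fluorescent vimentin reporter, and the genotype is given as WT. One group was the library labelled TGF-beta (1 library, called TGF-beta cells) and the other the library labelled untreated (1 library, called untreated cells), and the sources used here give neither the dose nor the duration of TGF-beta.

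The proteasome degrades proteins tagged with ubiquitin. Its 20S core is a barrel of alpha and beta rings, in which PSMB5, PSMB6 and PSMB7 carry the proteolytic sites, and PSMB8, PSMB9 and PSMB10 replace them in the immunoproteasome that interferon induces. The 19S cap binds and unfolds substrates: its PSMC subunits are ATPases, and its PSMD subunits form scaffolds, ubiquitin receptors and a deubiquitinase. PSMD5, PSMD9 and PSMD10 are chaperones that help to assemble the cap and are not part of the mature particle.

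Expression was read with AmpliSeq, a multiplex PCR assay that copies short stretches of chosen transcripts, so a gene's count comes from few positions along it. For the subunits with at least 20 CPM (counts relative to the scaled library total) in 1 library, the pair of neighbouring coding exons with the most untreated counts was looked up, and such a pair was found for 17 of 19. The pair held over 50% of the untreated counts of 13 members, with a median over the 17 of 99.5%. The pair was chosen for its untreated counts, which favours that library in its share and its counts alike, so the pair values are a description. The sequences below run across 4 of these exon junctions and lie in the exons that held the coding-exon counts compared next for PSMB2, PSMC4, PSMD2 and PSMC6. They come from GENCODE v29 transcripts (GRCh38), 5′ to 3′ along the mRNA, with the last 60 bases of the upstream exon in lower case and the first 60 of the downstream exon in capitals.
PSMB2, exons 1 and 2, chromosome 1: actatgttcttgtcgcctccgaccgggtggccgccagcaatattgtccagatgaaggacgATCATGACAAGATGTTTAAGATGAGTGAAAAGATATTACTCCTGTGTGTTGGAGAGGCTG
PSMC4, exons 3 and 4, chromosome 19: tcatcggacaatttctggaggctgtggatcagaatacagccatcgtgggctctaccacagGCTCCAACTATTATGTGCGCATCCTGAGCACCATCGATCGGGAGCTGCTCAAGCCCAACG
PSMD2, exons 17 and 18, chromosome 3: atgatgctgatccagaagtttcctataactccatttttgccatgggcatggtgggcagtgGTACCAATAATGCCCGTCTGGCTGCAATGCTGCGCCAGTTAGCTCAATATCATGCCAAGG
PSMC6, exons 5 and 6, chromosome 14: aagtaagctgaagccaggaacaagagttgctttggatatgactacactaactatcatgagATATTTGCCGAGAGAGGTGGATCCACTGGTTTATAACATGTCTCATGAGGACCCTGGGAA
The exon pair of PSMB2 held 1 expected count in TGF-beta cells and 83.5 in untreated cells. For PSMC4 the pair held 0 in TGF-beta cells and 67.9 in untreated cells, and for PSMD2 it held 1 in TGF-beta cells against 45.0 in untreated cells. The PSMC6 pair held 4.99 in TGF-beta cells and 18.1 in untreated cells. The pair of PSMD4, not printed, went the other way, with 7.98 in TGF-beta cells and 2.19 in untreated cells.

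The TGF-beta library held 597133 counts and the untreated library 674784, after expected counts were rounded to whole numbers. The 10 genes with the most counts took 43.6% of the counts in TGF-beta cells and 32.6% in untreated cells, and 20 counts or more were reached by 1965 genes in TGF-beta cells and 3157 in untreated cells. A single library per group allows no test, and differences have no replicate check. Ratios are TGF-beta over untreated after scaling by TMM (a trimmed mean of log ratios over genes), with exact 95% intervals, and a count of 0 was set to a floor of 3 counts. The PCR reads carry no molecular identifiers, so the intervals and floors cover counting error only. In such bulk samples fewer cells with a transcript and less RNA per cell cannot be told apart. GAPDH, a glycolytic enzyme, had 115 counts in TGF-beta cells and 2764 in untreated cells, and the 83 ribosomal protein genes together had 1492 in TGF-beta cells against 21511 in untreated cells. ACTB (actin) had 34 in TGF-beta cells against 463 in untreated cells and VIM (vimentin) 56 in TGF-beta cells against 452 in untreated cells. These abundant transcripts were thus lower by log2 ratios of -4.25 for GAPDH, -3.51 for ribosomal protein genes, -3.43 for ACTB and -2.68 for VIM. VIM is the mesenchymal gene that the reporter follows, and its count was lower, not higher, in the library labelled EMT. Its ratio was less low than those of GAPDH, ribosomal protein genes and ACTB. Whether the labels or RNA quality have a part in these values, and the part of these values in the results on subunits, was not tested.

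Markers of the labelled epithelial cells were read in both libraries, with 6 of 6 genes found and summed counts of 104 in TGF-beta cells and 291 in untreated cells. Of the 5 that reached 5 CPM, 2 were at least 2-fold lower in TGF-beta cells and 2 higher (median log2 ratio 0.16). Over all genes at 5 CPM, 26.7% were lower and 22.0% higher. The lower ones were KRT7, with 32 counts in TGF-beta cells and 179 in untreated cells, and KRT8, with 16 in TGF-beta cells and 53 in untreated cells. EPCAM, with 7 in TGF-beta cells and 4 in untreated cells, and CDH1, with 4 in TGF-beta cells and 1 in untreated cells, were the higher ones, and both intervals crossed equality. CDH1 reached 5 CPM in TGF-beta cells alone, and 2232 of all 3491 genes that did so were at least 2-fold higher. KRT19 had 45 in TGF-beta cells and 51 in untreated cells, and KRT18 had 0 in TGF-beta cells and 3 in untreated cells. Fibroblast markers summed to 54 counts in TGF-beta cells and 61 in untreated cells over 6 genes. PDGFRB held most of these, with 48 in TGF-beta cells against 52 counts in untreated cells, while LUM was at 0 in both libraries and COL3A1 at 0 in TGF-beta cells. Leukocyte markers summed to 9 in TGF-beta cells against 35 counts in untreated cells over 5 genes, with LYZ at 0 in both libraries and CD14 at 0 in TGF-beta cells. CD3E went the other way, with 5 in TGF-beta cells and 3 in untreated cells. CD68 held 17 of the untreated counts by its gene entry, while its exon entries held about 1, in coding exons. The 2 endothelial markers found summed to 13 in TGF-beta cells against 9 counts in untreated cells.

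Most subunit genes were lower in TGF-beta cells. Of the 41 entries, 34 reached 5 CPM in 1 library, 3 had counts below that (PSMB10, PSMC1 and PSMD5) and 4 had none in either library (PSMA8, PSMB8 and 1 of the 2 entries each of PSMA1 and PSMA2). Among the 34, 27 were at least 2-fold lower in TGF-beta cells, 1 was at least 2-fold higher and 6 lay between. The filter itself favours a difference where only 1 library passes it: 16 of the 34 passed through untreated cells alone, and they hold 15 of the 27. Of all 3477 genes that passed through untreated cells alone, 70.5% were at least 2-fold lower. Under a filter chosen after seeing the data, 17 reached 5 CPM in both libraries, of which 12 were at least 2-fold lower and 1 higher (median log2 ratio -1.44), where 19.7% and 13.7% of 8433 genes were lower and higher. That filter leaves out subunits near 0 in either library. Of the 41 entries, 28 overlap another deposited gene or have a pseudogene symbol, so that reads could be shared, and of the other 13 subunits 10 were at least 2-fold lower. Over all 15401 genes that reached 5 CPM, 26.7% met this rule as lower and 22.0% as higher. The median log2 ratio was -2.40 over the 34 subunits (quartiles -3.24 and -1.12) and 0.01 over all genes. The counting interval lay entirely below equality for 22 subunits, against 16.8% of all genes, and entirely above it for 2, against 9.99%. Of the 19 subunits with at least 20 CPM in 1 library, 15 were at least 2-fold lower and 1 was higher, where 36.0% and 18.5% of the 5341 genes at that level were lower and higher.

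**Figure D1:**
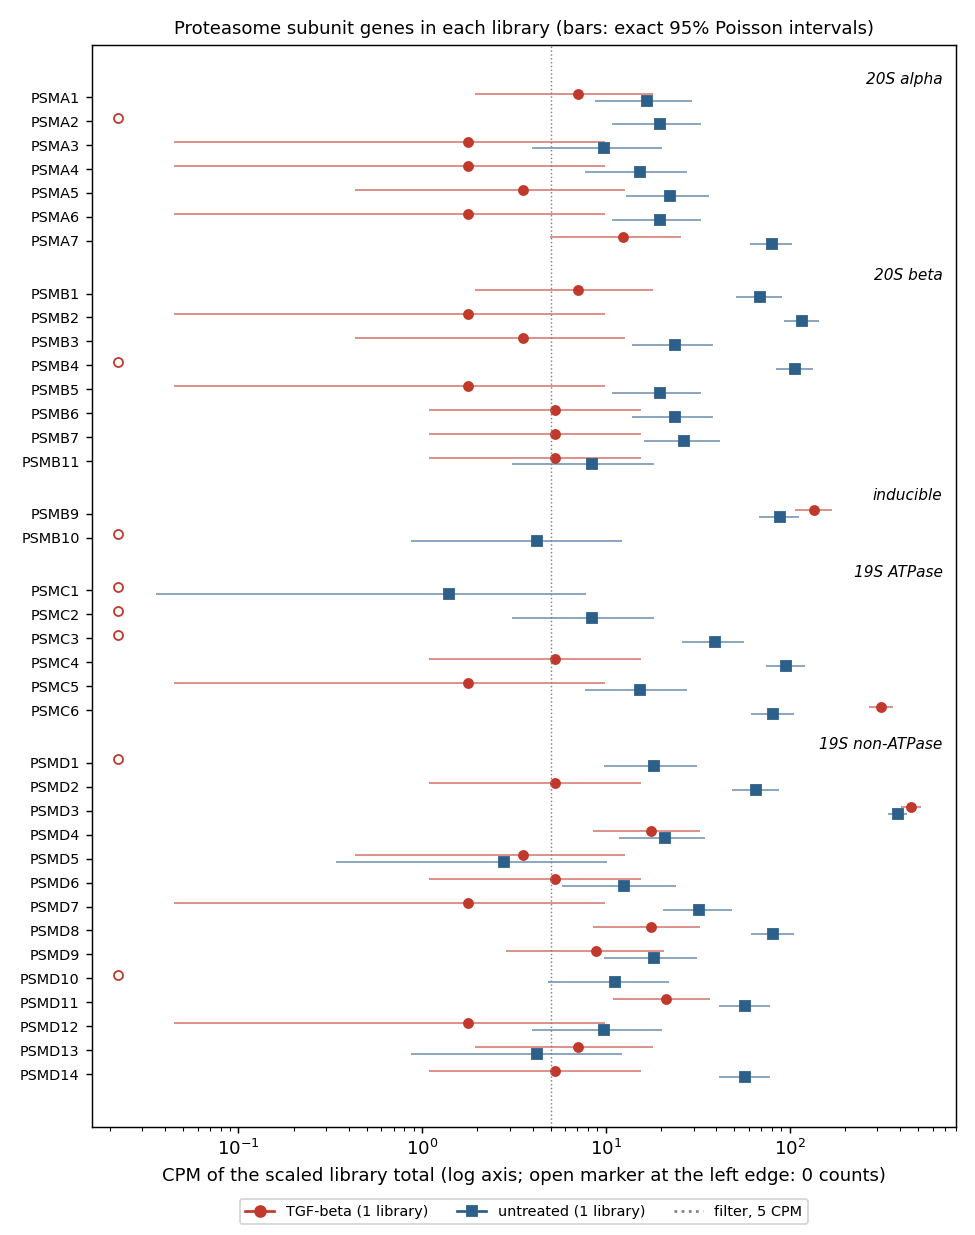
CPM of the scaled total (log axis) for each subunit gene with a count in either library, in TGF-beta cells (red circles) and untreated cells (blue squares), with exact 95% Poisson intervals as bars and open circles for 0 counts. The red circle lies left of the blue square in most rows, and right of it for PSMB9, PSMC6, PSMD3, PSMD5 and PSMD13.

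The sum over all subunits hides this pattern. All 41 entries together had 606 counts in TGF-beta cells and 1206 in untreated cells, which is 0.101% (exact binomial interval 0.0936 to 0.110) of the counts in TGF-beta cells and 0.179% (0.169 to 0.189) of those in untreated cells. This gave a log2 ratio of -0.66 (-0.80 to -0.52). PSMB9, PSMC6 and PSMD3 alone, 3 genes picked out after their values were seen, held 515 of the TGF-beta counts and 397 of the untreated counts. That is 85.0% (81.9 to 87.7) of all subunit counts in TGF-beta cells and 32.9% (30.3 to 35.7) in untreated cells. The other 38 entries had 91 counts in TGF-beta cells and 809 in untreated cells, a log2 ratio of -2.82 (-3.15 to -2.50), or 7.04-fold lower in TGF-beta cells.

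The alpha subunits form the outer rings of the core and gate its entrance. All 7 of their entries that reached 5 CPM were at least 2-fold lower in TGF-beta cells, where 26.7% of all genes were. Of these, PSMA2 to PSMA6 passed the filter through untreated cells alone, and 70.5% of all genes that passed that way were lower. The summed counts of the alpha subunits were 16 in TGF-beta cells and 131 in untreated cells (log2 ratio -2.70, -3.55 to -1.94). PSMA7 had 7 counts (12.4 CPM) in TGF-beta cells and 57 (79.9 CPM) in untreated cells, a log2 ratio of -2.69 (-4.07 to -1.55). PSMA5 had 2 counts (3.54 CPM) in TGF-beta cells against 16 (22.4 CPM) in untreated cells, a log2 ratio of -2.66 (-5.83 to -0.58). Both intervals stay below equality. The other 5 that reached 5 CPM had between 0 and 4 counts in TGF-beta cells and between 7 and 14 in untreated cells, and the intervals of PSMA1 and PSMA3 reached equality. PSMA2 is uncertain: its 14 untreated counts stand under an identifier (ENSG00000256646) that the gene name table used here pairs with no symbol, while the entry it pairs with PSMA2 had 0 counts in both libraries. PSMA8, an alpha subunit of the testis, had 0 counts in both libraries, which allows up to 5.31 CPM in TGF-beta cells and 4.21 CPM in untreated cells.

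The beta subunits line the inner rings of the core. Of 8 that reached 5 CPM, 7 were at least 2-fold lower in TGF-beta cells. Of these, PSMB2 to PSMB5 passed the filter through untreated cells alone, and 70.5% of all genes that passed that way were lower. The summed counts of the beta subunits were 17 in TGF-beta cells and 281 in untreated cells. The log2 ratio of the sums was -3.71 (-4.51 to -3.01), or 13.1-fold lower. PSMB2 (hg19 chr1:36067185-36107445, minus strand), a structural subunit, had 1 count (1.77 CPM) in TGF-beta cells and 83 (116 CPM) in untreated cells. Its log2 ratio of -6.04 (-11.36 to -3.52) was the lowest of the subunit ratios that do not rest on the floor. PSMB4 (hg19 chr1:151372010-151374420, plus strand), another structural subunit, had 0 counts in TGF-beta cells and 76 (107 CPM) in untreated cells. With the 0 at its floor PSMB4 was 20.1-fold lower (log2 ratio -4.33). The interval of its log2 ratio ended at -3.99, which allows a smaller difference than this floor value. Of its untreated counts, 68.2 lay in 1 coding exon of 147 bases (hg19 chr1:151372918-151373064).

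PSMB1 had 4 counts (7.08 CPM) in TGF-beta cells and 49 (68.7 CPM) in untreated cells, a log2 ratio of -3.28 (-5.21 to -1.83). PSMB3 had 2 counts (3.54 CPM) in TGF-beta cells against 17 (23.8 CPM) in untreated cells, a log2 ratio of -2.75 (-5.91 to -0.68). Neither PSMB1 nor PSMB3 is catalytic. The 3 constitutive catalytic subunits were lower as well. PSMB5, the chymotrypsin-like subunit and main target of bortezomib, had 1 count (1.77 CPM) in TGF-beta cells against 14 (19.6 CPM) in untreated cells, a log2 ratio of -3.47 (-8.87 to -0.76). PSMB6, the caspase-like subunit, had 3 counts (5.31 CPM) in TGF-beta cells against 17 (23.8 CPM) in untreated cells, a log2 ratio of -2.17 (-4.58 to -0.38). PSMB7, the trypsin-like subunit, had 3 counts (5.31 CPM) in TGF-beta cells against 19 (26.6 CPM) in untreated cells, a log2 ratio of -2.33 (-4.73 to -0.56). All 3 intervals lie below equality but are wide, because no TGF-beta count exceeded 3. PSMB11, the thymus-specific subunit, had 3 counts in TGF-beta cells against 6 in untreated cells, and a difference was not detectable at this depth.

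The inducible subunits gave a different picture, which rests on PSMB9 alone. PSMB9 (hg19 chr6:32811913-32827362, plus strand) had 77 counts (136 CPM) in TGF-beta cells and 63 (88.3 CPM) in untreated cells, a log2 ratio of 0.63 (0.13 to 1.13). It was higher in TGF-beta cells by less than 2-fold, and its interval crossed equality when libraries were scaled by total counts (-0.03 to 0.97) or with DESeq2 size factors (-0.09 to 0.91). PSMB8 had 0 counts in both libraries, and PSMB10 had 0 in TGF-beta cells and 3 in untreated cells, both at or under the floor. Within a library the inducible subunits can be set against the constitutive catalytic ones without any scaling. In TGF-beta cells PSMB8, PSMB9 and PSMB10 together had 77 counts where PSMB5, PSMB6 and PSMB7 had 7, a ratio of 11.0. In untreated cells the inducible subunits had 66 counts where the constitutive ones had 50, a ratio of 1.32. The ratio of these ratios was 8.33, a log2 value of 3.06 (exact conditional interval 1.77 to 4.53). It compares counts of different amplified segments between libraries and is not a ratio of proteins or of particles.

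Every PSMB9 count lay in 1 exon entry of 129 bases (hg19 chr6:32821938-32822066), which is the first exon of its coding transcripts. The deposited span of PSMB9 overlaps those of PSMB8, TAP1 and TAPSAR1, but this exon lies outside the spans of PSMB8 and TAP1. Whether its reads were shared with another entry was not tested. The coding part of that exon is printed from the GENCODE v29 transcript (GRCh38), 5′ to 3′, with the start codon in capitals, because all that is measured of PSMB9 rests on this exon.
PSMB9, exon 1, coding part: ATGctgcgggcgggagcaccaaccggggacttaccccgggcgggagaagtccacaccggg
TAP1, the peptide transporter gene next to PSMB9, had 2 counts in TGF-beta cells and 14 in untreated cells. Of the 4 members of the list of interferon and MHC region partners that reached 5 CPM, 2 were at least 2-fold lower and 1 was higher (median -1.32), NLRC5 with 7 counts in TGF-beta cells against 3 in untreated cells.

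The ATPases form the ring that unfolds substrates and feeds them into the core. Of 5 that reached 5 CPM, 3 were at least 2-fold lower in TGF-beta cells and 1 was higher. PSMC2, PSMC3 and PSMC5 passed the filter through untreated cells alone, and 70.5% of all genes that passed that way were lower. PSMC4 (hg19 chr19:40476912-40487348, plus strand) had 3 counts (5.31 CPM) in TGF-beta cells and 68 (95.4 CPM) in untreated cells, a log2 ratio of -4.17 (-6.48 to -2.56). PSMC3 had 0 counts in TGF-beta cells and 28 (39.3 CPM) in untreated cells. At the floor PSMC3 was 7.40-fold lower (log2 ratio -2.89), with an interval that ended at -2.49 and so allows a smaller difference. These were well separated between the libraries. PSMC5 had 1 count in TGF-beta cells against 11 in untreated cells and PSMC2 had 0 in TGF-beta cells against 6 in untreated cells. PSMC1 had 0 in TGF-beta cells against 1 in untreated cells and is uncertain, since 13 symbols among the deposited genes are pseudogenes of PSMC1 with which it could share reads. All 6 ATPases summed to 182 counts in TGF-beta cells and 172 in untreated cells, a log2 ratio of 0.42 (0.11 to 0.73) whose interval crossed equality with DESeq2 size factors (-0.11 to 0.51) or total counts (-0.05 to 0.57). PSMC6 held most of these counts in TGF-beta cells. Without PSMC6 the ATPases summed to 4 counts in TGF-beta cells and 114 in untreated cells, a log2 ratio of -4.50 (-6.40 to -3.10).

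PSMC6 (hg19 chr14:53173890-53195305, plus strand) was the subunit gene at least 2-fold higher in TGF-beta cells when all its counts were taken. It had 178 counts (315 CPM) in TGF-beta cells and 58 (81.3 CPM) in untreated cells, a log2 ratio of 1.95 (1.52 to 2.41). Of these, 171.5 expected counts in TGF-beta cells and 38 in untreated cells lay in 1 entry of 2375 bases (hg19 chr14:53188218-53190592). That entry is exon 1 of the transcript ENST00000557557, which GENCODE v29 types as a processed transcript without coding sequence, and it lies wholly between exons 12 and 13 of the coding transcript ENST00000445930. In exons of coding transcripts PSMC6 had 5 counts in TGF-beta cells and 20 in untreated cells, a log2 ratio of -1.66 (-3.43 to -0.21). The direction for PSMC6 therefore depends on which counts are taken, higher over the whole gene and lower over its coding exons.

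The PSMD proteins build the base and lid of the cap. Of 13 that reached 5 CPM, 10 were at least 2-fold lower in TGF-beta cells and 3 lay between, with a median log2 ratio of -1.44. PSMD1, PSMD7, PSMD10 and PSMD12 passed the filter through untreated cells alone, and 70.5% of all genes that passed that way were lower. PSMD2, the large scaffold of the base, had 3 counts (5.31 CPM) in TGF-beta cells and 47 (65.9 CPM) in untreated cells, a log2 ratio of -3.63 (-5.96 to -2.00). PSMD14, the deubiquitinase of the lid, had 3 counts (5.31 CPM) in TGF-beta cells against 41 (57.5 CPM) in untreated cells, a log2 ratio of -3.44 (-5.77 to -1.79). PSMD7, its partner in the lid, had 1 count (1.77 CPM) in TGF-beta cells against 23 (32.3 CPM) in untreated cells, a log2 ratio of -4.19 (-9.55 to -1.57). The deubiquitinase and its partner were thus both lower beyond counting error. PSMD8, a lid subunit, had 10 counts (17.7 CPM) in TGF-beta cells against 58 (81.3 CPM) in untreated cells, a log2 ratio of -2.20 (-3.33 to -1.22). PSMD11, a lid scaffold, had 12 counts (21.2 CPM) in TGF-beta cells against 41 (57.5 CPM) in untreated cells, a log2 ratio of -1.44 (-2.50 to -0.48). PSMD4, a ubiquitin receptor, had 10 counts (17.7 CPM) in TGF-beta cells against 15 (21.0 CPM) in untreated cells, a log2 ratio of -0.25 (-1.56 to 1.0), so that a difference was not detectable at this depth. The other 7 had between 0 and 5 counts in TGF-beta cells and between 2 and 13 in untreated cells. Among them are the chaperones PSMD5 (2 counts in TGF-beta cells, 2 in untreated cells), PSMD9 (5 in TGF-beta cells, 13 in untreated cells) and PSMD10 (0 in TGF-beta cells, 8 in untreated cells).

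PSMD3 (hg19 chr17:38137050-38154213, plus strand), a scaffold of the lid, had the most counts of all members, and they too lay mainly outside the coding exons. It had 260 counts (460 CPM) in TGF-beta cells and 276 (387 CPM) in untreated cells, a log2 ratio of 0.25 with an interval that touched equality at its lower end and reached 0.50. Of these, 235 expected counts in TGF-beta cells and 228 in untreated cells lay in 1 entry of 2071 bases (hg19 chr17:38149251-38151321). GENCODE v29 types its transcript, ENST00000485835, as a retained intron, and 5.55% of the entry overlaps coding exons (exon 7). In exons of coding transcripts PSMD3 had 25 counts in TGF-beta cells and 44 in untreated cells, a log2 ratio of -0.48 (-1.25 to 0.26), within counting error of equality. All 14 PSMD genes summed to 314 counts in TGF-beta cells and 556 in untreated cells, a log2 ratio of -0.49 (-0.69 to -0.29). Without PSMD3 the other 13 PSMD genes summed to 54 counts in TGF-beta cells and 280 in untreated cells, a log2 ratio of -2.04 (-2.49 to -1.61).

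**Figure D2:**
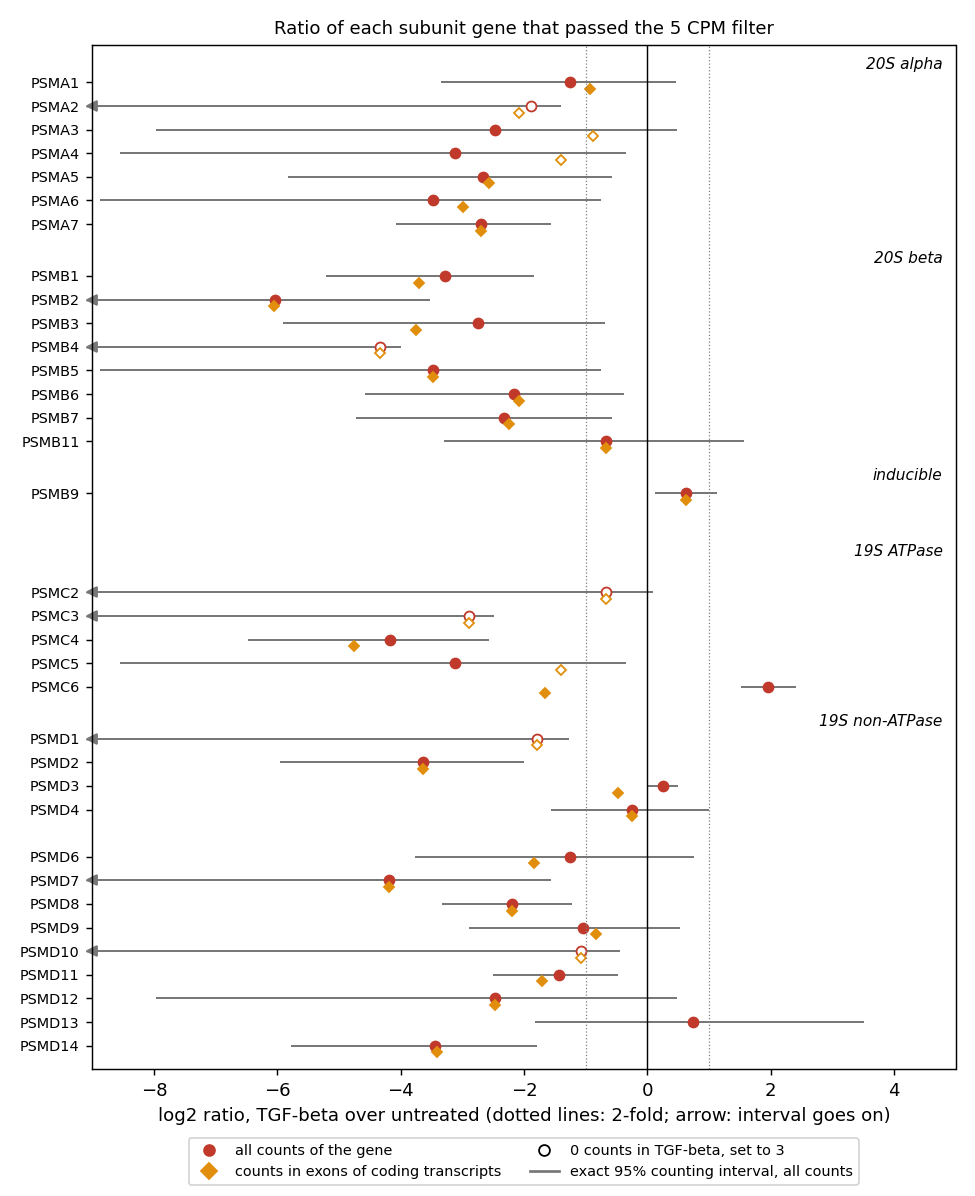
Log2 ratio of TGF-beta over untreated for each subunit gene at 5 CPM or more, from all counts of the gene (circles, with exact 95% counting intervals) and from counts in exons of coding transcripts (diamonds). Open symbols have 0 counts in TGF-beta cells, set to 3. Circle and diamond lie on opposite sides of equality for PSMC6 (1.95 and -1.66) and PSMD3 (0.25 and -0.48).

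Counting in coding exons alone, a split chosen after the exon values were seen, gave nearly as many lower subunits and no higher one. An exon entry was taken as coding when at least 50% of its bases lay in exons of coding transcripts of the gene. By this count 25 of 34 subunit entries at 5 CPM or more were at least 2-fold lower in TGF-beta cells and 0 were higher, where 30.1% and 21.0% of 11588 genes were lower and higher. With 1 library per group these counts come from the size rule alone and no test stands behind them. All members together then had 184 counts in TGF-beta cells and 927 in untreated cells, a log2 ratio of -2.00 (-2.23 to -1.77). By this count the ATPases had 7 counts in TGF-beta cells against 132 in untreated cells (log2 ratio -3.90), the PSMD genes 70 in TGF-beta cells against 319 in untreated cells (-1.85) and the inducible subunits 77 in TGF-beta cells against 69 in untreated cells (0.49). The last sum exceeds the 66 untreated counts of the gene entries because exon entries of a gene can add up to more than its gene count.

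The share of subunit counts outside coding exons was 69.7% (exact binomial interval 65.8 to 73.3) in TGF-beta cells and 23.3% (21.0 to 25.8) in untreated cells, from sums rounded to whole counts. Without PSMB9, PSMC6 and PSMD3 it was 13.5% (7.17 to 22.4) in TGF-beta cells and 1.36% (0.679 to 2.41) in untreated cells. Over all genes with a coding transcript it was 8.01% in TGF-beta cells and 6.65% in untreated cells. Genes such as PSMC6 and PSMD3 were not rare. Of 4509 genes with a coding transcript and at least 20 counts over both libraries, 388 (8.61%) had over 50% of their counts outside coding exons, as did 2 of the 16 subunits at that depth. The median log2 ratio was 0.10 over those 388 genes and -0.22 over the rest. The origin of these reads was not tested.

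**Figure D3:**
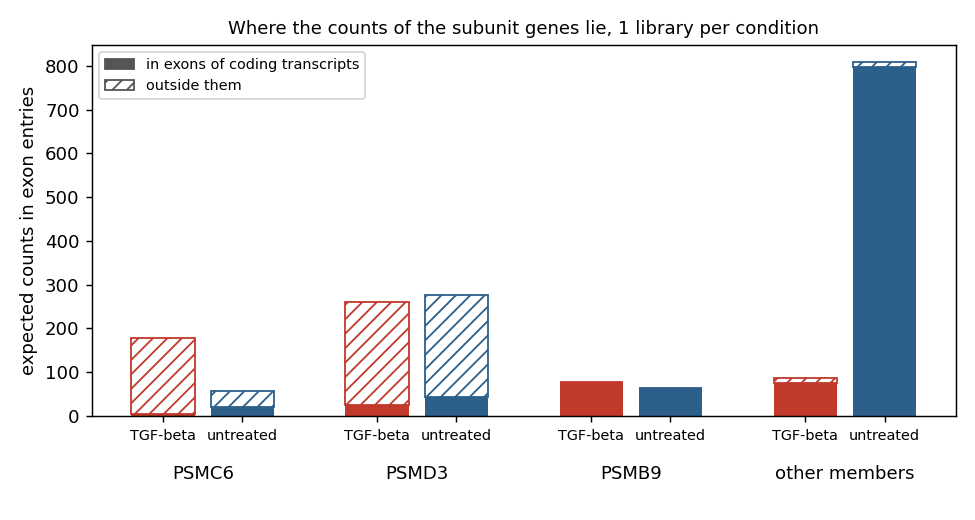
Expected counts of PSMC6, PSMD3, PSMB9 and the sum of the other subunits in TGF-beta cells (red) and untreated cells (blue), split into exons of coding transcripts (filled) and entries outside them (hatched). The hatched part makes up most of PSMC6 and PSMD3 in both libraries, PSMB9 has none, and the filled part of the other subunits is far smaller in TGF-beta cells.

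For most subunits with counts in both libraries, the exon entry with the most counts was not the same in both. The comparison covered 26 members and left out PSMA4, PSMA6 and PSMC5, each with 1 count in TGF-beta cells. Of the 26, 10 had the same exon interval as the one with the most counts in both, and for 15 the 2 intervals overlapped. Members that differed in this could still share an entry, as PSMD6 did with 2.5 expected counts in TGF-beta cells and 2.33 in untreated cells. In TGF-beta cells the entry with the most counts often held few, such as 1 expected count for PSMB5 and for PSMD2. For PSMC4, all 67.9 expected counts in exons 3 and 4 were untreated, while its 3 TGF-beta counts lay singly in 3 other exon entries.

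The promoters of the subunit genes were searched for the antioxidant response element, TGACNNNGC, to which NFE2L1 and NFE2L2 bind when proteasome genes are induced together. RefSeq promoter windows of 300 bases around the annotated start (GRCh38.p14) were matched by symbol for 34 of the 39 symbols, and PSMD4, PSMB1, PSMB6, PSMB7 and PSMA7 had no match. On either strand the element stood in 10 of the 34 (29.4%) and in 16.1% of 27305 genes. The letters CCAAT stood in 18 of the 34 (52.9%) and in 39.7% of all genes. GAAANNGAA, a core of the interferon-stimulated element, stood in 5 of the 34 (14.7%) and in 9.86% of all genes, PSMB8 and PSMB10 among the 5. Of the 10 members with the antioxidant response element, 7 were at least 2-fold lower in TGF-beta cells, 2 lay between (PSMB9 and PSMD3) and 1 was below the filter. Among the 34 subunit entries at 5 CPM or more, with or without the element, 27 were lower, as were 26.7% of all genes. A link between the element and the ratios was not tested. The windows of PSMC4, PSMB9 and PSMD3 are shown because each holds the element and the 3 genes differ in their ratios, with matches in capitals, 5′ to 3′ along the gene.
PSMC4, GRCh38 chr19:39970915-39971214, plus strand: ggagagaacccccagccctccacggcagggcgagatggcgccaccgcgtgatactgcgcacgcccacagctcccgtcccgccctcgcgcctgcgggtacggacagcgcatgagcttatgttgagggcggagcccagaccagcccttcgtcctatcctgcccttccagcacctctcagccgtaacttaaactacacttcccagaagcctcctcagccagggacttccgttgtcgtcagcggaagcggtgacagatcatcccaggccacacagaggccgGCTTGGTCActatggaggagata
PSMB9, GRCh38 chr6:32853942-32854241, plus strand: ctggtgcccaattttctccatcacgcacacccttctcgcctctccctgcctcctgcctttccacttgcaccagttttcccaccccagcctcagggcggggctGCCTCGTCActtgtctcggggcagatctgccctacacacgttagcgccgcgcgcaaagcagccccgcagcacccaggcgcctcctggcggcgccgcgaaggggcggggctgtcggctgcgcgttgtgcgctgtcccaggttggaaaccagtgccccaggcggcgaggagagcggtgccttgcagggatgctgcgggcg
PSMD3, GRCh38 chr17:39980557-39980856, plus strand: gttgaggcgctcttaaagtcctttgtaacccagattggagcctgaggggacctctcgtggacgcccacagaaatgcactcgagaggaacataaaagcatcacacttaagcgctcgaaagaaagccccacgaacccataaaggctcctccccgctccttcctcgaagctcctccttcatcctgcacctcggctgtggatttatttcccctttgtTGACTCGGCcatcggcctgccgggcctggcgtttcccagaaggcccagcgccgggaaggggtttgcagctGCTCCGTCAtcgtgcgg
A match of letters is a description of the window, and binding was not measured here.

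In the lists of activators, assembly chaperones, shuttles and ubiquitin genes, over 50% of the members that reached 5 CPM were lower in TGF-beta cells, where 26.7% of all genes were. The filter favours this in the first 3 lists. Most of their lower members, such as PSME1, PSME3 and PSMF1, passed it through untreated cells alone. Of all 3477 genes that passed that way, 70.5% were lower. The lower ubiquitin genes passed in both libraries, and 19.7% of the 8433 genes that did so were lower. Among activators and the inhibitor of the core, the 3 of 5 that reached 5 CPM were all at least 2-fold lower (median log2 ratio -2.99). PSMF1, the inhibitor, had 1 count in TGF-beta cells against 29 in untreated cells, PSME3 had 2 in TGF-beta cells against 20 in untreated cells and PSME1 had 0 in TGF-beta cells against 15 in untreated cells. Of the 6 assembly chaperones, 4 reached 5 CPM and 3 of them were lower (median -1.83), with PSMG3 at 1 count in TGF-beta cells against 18 in untreated cells and PSMG4 at 8 in TGF-beta cells against 23 in untreated cells, although the interval of PSMG4 reached equality (-2.56 to 0.02). Of the 6 proteasome-associated proteins that reached 5 CPM, 2 were lower and 0 higher (median -0.53), near the share of all genes. SHFM1, a small lid subunit, had 2 counts in TGF-beta cells and 60 in untreated cells. ADRM1, a ubiquitin receptor of the cap, had 14 in TGF-beta cells against 70 in untreated cells, and TXNL1, a thioredoxin-like protein bound to the cap, had 12 in TGF-beta cells against 17 in untreated cells.

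Ubiquitin itself was lower too. All 4 of the 6 ubiquitin and E1 genes that reached 5 CPM were at least 2-fold lower (median -2.89). UBB had 21 counts in TGF-beta cells and 317 in untreated cells (log2 ratio -3.58, -4.29 to -2.94). RPS27A, which encodes ubiquitin fused to a ribosomal protein, had 27 counts in TGF-beta cells against 219 in untreated cells. UBA1, the main E1 enzyme that activates ubiquitin, had 5 in TGF-beta cells against 40 in untreated cells. Of the 10 shuttles and VCP cofactors, which bring substrates to the proteasome, 6 were lower and 1 was higher (median -1.53). FAF1 had 1 count in TGF-beta cells against 31 in untreated cells, UBQLN4 had 1 in TGF-beta cells against 15 in untreated cells and NSFL1C had 2 in TGF-beta cells against 21 in untreated cells.

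The 6 genes that govern transcription of proteasome genes were split, with 2 at least 2-fold lower and 3 higher. Their median log2 ratio was 0.53, and 26.7% of all genes were lower and 22.0% higher. The filter favours a difference here too. NFE2L1 and NGLY1, both higher, passed it through TGF-beta cells alone. Of all 3491 genes that passed that way, 2232 were at least 2-fold higher. NFE2L2, which was lower, passed through untreated cells alone, where 70.5% of all 3477 genes were lower. MAFK, a small partner of NFE2L1 and NFE2L2, had 3 counts in TGF-beta cells and 39 in untreated cells, a log2 ratio of -3.36 (-5.70 to -1.71). NGLY1, the enzyme that removes glycans from NFE2L1, had 14 in TGF-beta cells against 2 in untreated cells, a log2 ratio of 3.14 (1.02 to 6.32). In coding exons NGLY1 had 2 counts in TGF-beta cells and 0 in untreated cells, so its ratio too rests on reads outside them. NFE2L1, named after its values were seen, had 8 counts in TGF-beta cells and 1 in untreated cells, all in coding exons, a log2 ratio of 3.34 (0.44 to 8.81).

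**Figure D4:**
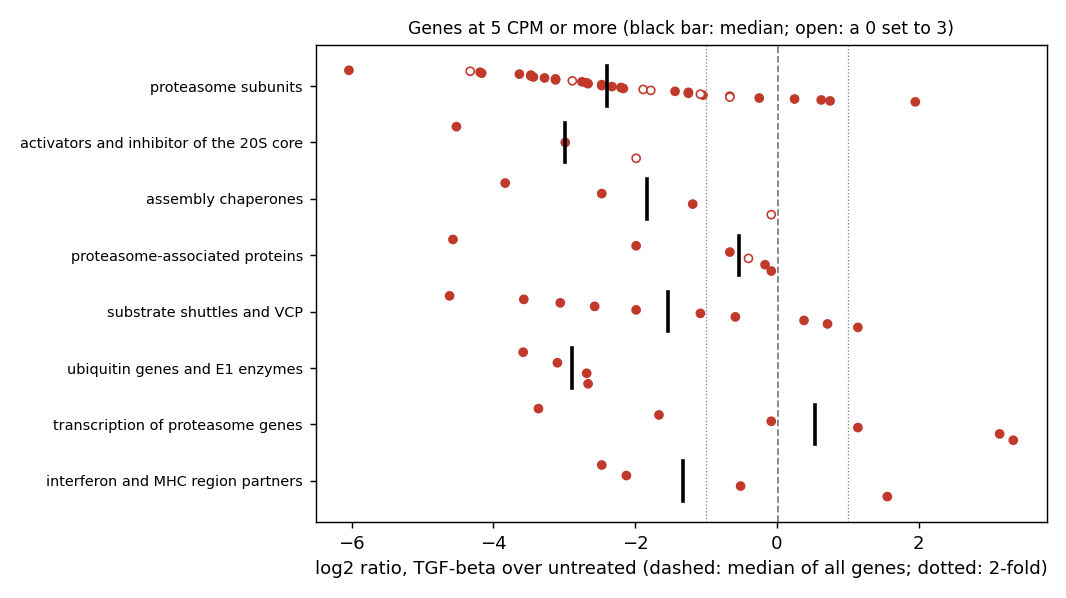
Log2 ratio of TGF-beta over untreated for the subunit genes and for 7 lists of related genes at 5 CPM or more, 1 point per gene, with each list's median as a black bar and open points where a count of 0 was set to 3. Medians lie below the median of all genes (dashed line, 0.01) for the subunits (-2.40) and for 6 of the 7 lists, and above it for the transcription list (0.53).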

How the data were processed

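RNA of 2 A549 cultures was purified on Qiagen columns and 10 ng per library entered the AmpliSeq Transcriptome kit, per the labels' protocols. The authors deposited expected counts, which are estimates and often not whole, per gene, transcript and exon, without normalization. hg19 and DESeq stand in the submitters' processing notes, without a role or version. The sources used here name no aligner, counter or strand setting, so overlapping genes can share reads. Amplicon positions were not used here.

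Gene entries were rounded to whole counts and scaled by TMM in edgeR 4.0.16 (R 4.3.3), with factors of 0.946 for the TGF-beta library and 1.06 for the untreated library. CPM are of scaled totals. A gene needed at least 5 CPM in 1 library. A 0 was set to a floor of 3 counts, and no ratio is given where both counts were at or under 3. Tallies and medians hold such floor values. Intervals of ratios (95%) follow Clopper and Pearson, given the sum of both counts (SciPy 1.17.1, Python 3.11.15), and intervals of CPM are Poisson. With 1 library per group no p-value was computed. Size-rule counts used at least 2-fold. The scaling and the ratio intervals were tried on simulated counts in which few genes changed. The filter, the tallies and the exon split were not tried in this way.

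Exon entries were used only to see where counts lie, and their sums differed from the gene count by at most 1 count in TGF-beta cells and 3 in untreated cells for any member. Members with at least 20 CPM in 1 library, PSMB5 to PSMB10 and any member at least 2-fold higher are named with counts, CPM and ratio, and the others by range, apart from a few named in passing. Up to 4 members of each related list with at least 20 CPM and the largest differences are named. TAP1 and NLRC5 were named outside this rule, after their values were seen. A few genes that the rule would name are not reported here. Members and lists were chosen with earlier results of these data known. Sequences come from GENCODE v29 transcripts (GRCh38) and RefSeq promoters (GRCh38.p14), and coordinates of that build were not mixed with hg19. DESeq2 1.42.0 supplied size factors for 1 alternative.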

Additional observations from a re-analysis of the deposited data

How the results depend on the processing

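There were 18 alternatives for the counts and ratios over all subunits, 3 of them (counts in coding exons, leaving out PSMB9, PSMC6 and PSMD3, and 5 CPM in both libraries) chosen after seeing the data. No result over all subunits turned its direction under them. The log2 ratio of summed counts, -0.66, was -0.88 with DESeq2 size factors, -0.82 with total counts, -0.43 without members that overlap another gene or have a pseudogene, and -1.09 without PSMD3, the member with the most counts. With 5 CPM in both libraries, which leaves out genes near 0 in either one, the summed ratio was -0.19, the median -1.44 and 12 of 17 subunits were lower. The summed ratio was -2.00 in coding exons and -2.82 without PSMB9, PSMC6 and PSMD3. The median of -2.40 was -2.62 with DESeq2 size factors, -2.56 with total counts, -2.20 at 1 CPM and with no filter, -2.69 at 20 CPM and also without overlapping genes or pseudogenes, -2.66 with a floor of 1 count and -2.08 in coding exons. The count of 27 lower subunits was 15 at 20 CPM and 10 without overlapping genes or pseudogenes, where 19 and 13 were compared. The count of 1 higher subunit was 2 at 1 CPM and with no filter, where PSMC1 with 0 counts in TGF-beta cells and 1 in untreated cells joined through the floor, and 0 in coding exons and without PSMB9, PSMC6 and PSMD3. Against TMM, every log2 ratio shifted by -0.22 with DESeq2 size factors, -0.16 with total counts, 0.08 with upper quartiles and 0.10 with totals without the top genes. The inducible sum (0.56 with TMM) then ran from 0.34 to 0.66 and the ATPase sum (0.42) from 0.20 to 0.52, and both intervals crossed equality under the first 2. The log2 ratio of 3.06 between inducible and constitutive subunits lay between 2.94 and 4.05 under its alternatives. No paired analysis was possible because each group has 1 library, and no library could be left out. Few subunits had over 5 counts in TGF-beta cells, which limits most of them to large differences.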

Other observations

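Pseudogene symbols of the subunits held few reads. The 29 pseudogene symbols of subunit genes among the deposited entries summed to 17 counts in TGF-beta cells and 32 in untreated cells. PSMC1 differed from the rest in this, since its 13 pseudogenes held 11 counts in TGF-beta cells and 23 in untreated cells, while PSMC1 itself held 0 in TGF-beta cells and 1 in untreated cells. PSMC1P9 alone had 3 counts in TGF-beta cells and 16 in untreated cells, and PSMC1P1 had 5 in TGF-beta cells against 7 in untreated cells.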
